A study of Homo sapiens with 10 samples.

Results

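HER2, the product of ERBB2, is a receptor tyrosine kinase of the plasma membrane and belongs to the same family as EGFR, ERBB3 and ERBB4. It has no known ligand of its own. EGF binds EGFR, which then pairs with HER2 and other family members and starts the RAS-ERK, PI3K-AKT and phospholipase C cascades. Full-length ERBB receptors have also been found in the nucleus after endocytosis, which is why HER2 was mapped on DNA.

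The data were the HER2 binding sites of BT474, an established human breast cancer line with amplified ERBB2, after vehicle (water) or EGF at 100 ng/ml for 3 h, in asynchronous cells. Sites were mapped by ChIP-exo, in which an exonuclease trims the DNA held by the antibody, with 1 library per treatment. The vehicle list held 8559 peaks and the EGF list 29326, together 37885 of the 43001 HER2 peaks of the series. The others came from SKBR3, a second line with amplified ERBB2, at the same dose and time. The histone mark H3K4me1, which is found at enhancers and around active promoters, came from 2 ChIP-seq replicates of BT474 that the labels call asynchronous and the study describes as EGF-treated. How deeply the HER2 libraries were sequenced is unknown, none had a replicate, and so every difference between the lists is a difference between 2 libraries.

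A vehicle and an EGF peak were taken as the same site when they overlapped by at least 1 bp. Of the vehicle peaks, 7806 were kept after EGF, which was 91.2% (95% Wilson interval 90.6 to 91.8%), and 753 were lost, which was 8.80% (8.22 to 9.42%). Of the EGF peaks, 7785 were kept and 21541 were gained, which was 73.5% (72.95 to 73.96%). With the EGF list cut to 8559 peaks by score, 59.2% of vehicle peaks were kept and 41.1% of EGF peaks gained. Kept sites are described by their EGF peak unless stated. All intervals cover counting error only.

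The sequences that set the gained sites apart are shown first. All words of 8 letters within 50 bp of the midpoints were ranked, on both strands together, against windows of the same length 1 kb to either side. The 8 leading words of the gained sites were repeats of G and A, some broken by a C, which overlap one another. The first of them was GAGAGAGA, which was also among the 8 leading words of the kept sites. Presence of any of them, or of its reverse complement, is called a GA stretch. The 4 leading words of the lost sites were GCATACGA, CATACGAG, CGTATGCC and GGCATACA, and all 4 were also among the 8 leading words of the kept sites. They share letters with the core CGTNTGC that the study named. GCATACGA, CATACGAG and GGCATACG, the reverse complement of CGTATGCC, also occur in the P7 index primer of Illumina libraries. So does GCATACG, which matches the reverse complement of the core. The part of that primer in these lists was not tested here.

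To show the letters of the gained sites, 4 of high score that held GAGAGAGA in introns or intergenic sequence are given in GRCh37, in capitals where a GA stretch runs (runs are clipped at the window's ends), on the strand that reads AGAGA.
TMEM178B intron, chr7:140783255-140783335, plus strand: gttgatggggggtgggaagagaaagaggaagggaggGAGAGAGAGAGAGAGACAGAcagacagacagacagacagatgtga
Intergenic, nearest protein-coding start CCND1, chr11:69390119-69390199, minus strand: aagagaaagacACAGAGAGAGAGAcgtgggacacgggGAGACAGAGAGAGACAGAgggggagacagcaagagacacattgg
Intergenic, nearest protein-coding start PHACTR3, chr20:58140254-58140334, plus strand: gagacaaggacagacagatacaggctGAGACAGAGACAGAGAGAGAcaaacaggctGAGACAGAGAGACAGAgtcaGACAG
Intergenic, nearest protein-coding start SOX11, chr2:5905362-5905442, plus strand: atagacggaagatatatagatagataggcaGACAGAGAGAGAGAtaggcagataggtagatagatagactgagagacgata

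Kept sites of high score could hold the same letters. The site ranked first in the EGF list did so.
Intergenic, nearest protein-coding start ANKRD30BL, chr2:133028557-133028637, plus strand: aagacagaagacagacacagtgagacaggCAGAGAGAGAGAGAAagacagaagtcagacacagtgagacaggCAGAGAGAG

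Sites with the core are shown for each class, on the strand where it reads GCANACG, its reverse complement, in capitals. The first 2 were kept, the next was gained and the last 2 were lost.
SPATA7 intron, chr14:88867834-88867914, plus strand: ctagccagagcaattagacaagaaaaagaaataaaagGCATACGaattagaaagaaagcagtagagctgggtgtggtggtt
Intergenic, nearest protein-coding start MAP3K7, chr6:91755904-91755984, minus strand: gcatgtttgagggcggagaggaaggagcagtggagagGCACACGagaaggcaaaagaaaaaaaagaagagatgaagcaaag
HCFC2 intron, chr12:104469609-104469689, minus strand: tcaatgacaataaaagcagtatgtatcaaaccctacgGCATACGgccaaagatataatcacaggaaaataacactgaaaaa
Intergenic, nearest protein-coding start CDH9, chr5:25917818-25917898, minus strand: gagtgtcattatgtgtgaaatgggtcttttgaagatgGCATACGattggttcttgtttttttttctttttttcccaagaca
Intergenic, nearest protein-coding start CDH8, chr16:62854358-62854438, plus strand: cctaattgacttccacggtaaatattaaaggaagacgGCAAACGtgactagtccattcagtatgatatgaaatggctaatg

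Gained sites carried a GA stretch more often than kept or lost ones. It lay within 50 bp of the midpoint in 4499 gained sites, 20.9% (20.35 to 21.43%), against 6.38% of windows 1 kb away. In kept sites the share was 13.3% (12.6 to 14.1%), against 6.06% away, and in lost sites 6.77% (5.19 to 8.80%), against 5.71%. The 8 words were picked on the gained sites, so their share there is a description. Over 283576 windows of the same length placed every 10 kb along the genome, 5.88% held a GA stretch. Lost sites were thus at the level of their surroundings, with the interval including the share 1 kb away.

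The core ran the other way. CGTNTGC or its reverse complement was present in 1239 gained sites, 5.75% (5.45 to 6.07%), in 954 kept sites, 12.3% (11.5 to 13.0%), and in 127 lost sites, 16.9% (14.4 to 19.7%). Windows 1 kb away held it in 0.966%, 0.931% and 1.66%, and the genome windows in 0.909%. The 3 intervals did not overlap. With the EGF list cut to 8559 peaks by score, those of kept sites, at 11.8% (10.98 to 12.8%), and lost sites, at 13.05% (11.97 to 14.2%), did. The word GCATACGA alone was present in 1.53% of gained, 5.92% of kept and 9.03% of lost sites.

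The letters of a peak also went with whether it was shared between treatments. Among EGF peaks, 44.3% (42.1 to 46.5%) of the 2008 with the core and no GA stretch were kept, against 18.1% (17.1 to 19.2%) of the 5349 with a GA stretch and no core. Peaks with neither lay between, at 26.9% (26.3 to 27.5%). The GA words were picked on the gained sites, which are the EGF peaks not kept. The low kept share of EGF peaks with a GA stretch is therefore a description. Among vehicle peaks the order was the opposite. There, 95.9% (94.5 to 97.0%) of those with a GA stretch alone were kept, 91.0% (90.3 to 91.7%) of those with neither and 87.7% (85.5 to 89.7%) of those with the core alone.

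**Figure D1:**
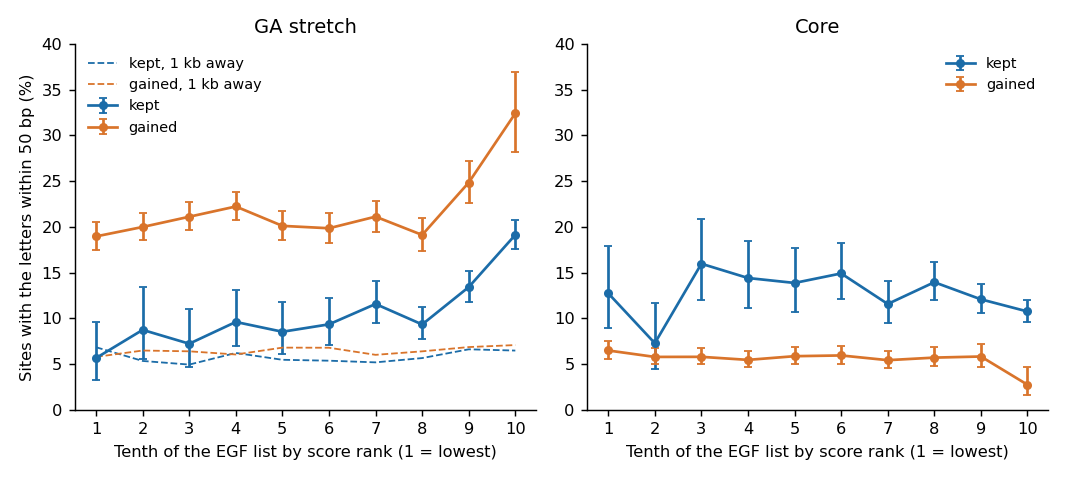
Share of kept and gained sites with a GA stretch (left) or the core (right) within 50 bp of the midpoint, by decile of the BT474 EGF list ranked by score, with 95% Wilson intervals and, at left, windows 1 kb away as dashed lines. Gained sites lay above kept sites for the GA stretch in every decile, from 18.96% in the lowest to 32.4% in the highest, and below kept sites for the core. The GA words were picked on the gained sites.

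Within score ranks, the differences in letters went the same way. The GA words were picked on these gained sites, so their shares in the deciles are a description. Within the highest decile of the EGF list, 32.4% (28.2 to 36.9%) of the 438 gained sites and 19.1% (17.6 to 20.7%) of the 2494 kept sites had a GA stretch. The core was then present in 2.74% (1.57 to 4.73%) of the gained and 10.8% (9.59 to 12.02%) of the kept. In the lowest decile, gained sites had a GA stretch in 18.96% and kept sites in 5.66% (3.27 to 9.63%). The core stayed between 2.74 and 6.48% of gained sites over the 10 deciles. In the second-lowest decile, the core intervals of gained (4.96 to 6.72%) and kept sites (4.46 to 11.7%) overlapped. Of the 1239 gained sites with the core, 120 also had a GA stretch, which was 9.69% (8.16 to 11.5%), against 21.6% of those without the core and 6.66% of windows 1 kb away. In lost sites the shares with and without the core were 7.87 and 6.55%.

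Gained sites with a GA stretch differed from other gained sites in other readouts. Of gained promoter sites, 28.4% (25.7 to 31.35%) had one, against 20.5% of the other gained sites. Of gained sites with another gained site within 5 kb, 27.3% (25.5 to 29.3%) had one, against 20.2% (19.6 to 20.8%) of the rest. H3K4me1 was present at 12.9% ± 0.817 (SD, n = 2) of gained sites with a GA stretch and at 11.3% ± 0.473 without. For kept sites these shares were 13.9% ± 1.30 and 13.3% ± 0.377. Of kept promoter sites, 17.0% (13.5 to 21.3%) had a GA stretch, against 13.1% (12.4 to 13.9%) of the other kept sites, with intervals that overlapped.

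Peaks of high score were kept more often in both lists. The score has no stated scale and was read only as rank within its list. In the vehicle list, 75.5% (72.5 to 78.3%) of the lowest decile was kept and 99.4% (98.6 to 99.8%) of the highest. In the EGF list the shares ran from 7.44% (6.53 to 8.46%) in the lowest decile to 85.1% (83.7 to 86.3%) in the highest. All of the 100 EGF peaks of highest score were kept, and 960 of the first 1000. The gained sites were spread over the lower ranks, with a median percentile of 39.99 against 81.4 for kept sites, where 100 is the highest score.

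**Figure D2:**
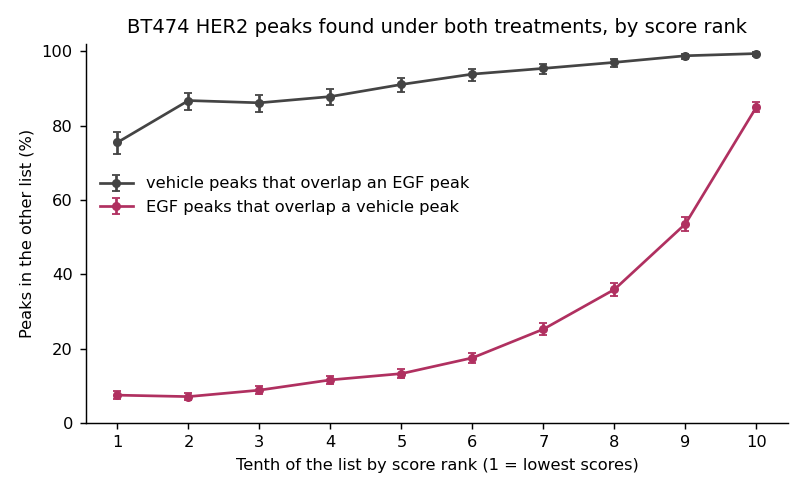
Share of BT474 HER2 peaks found under both treatments, by decile of score rank in their own list, with 95% Wilson intervals. The vehicle list rose from 75.5 to 99.4% and the EGF list from 7.44 to 85.1%.

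Sharing was a matter of whole peaks. The median overlap was 235 bp, the median kept vehicle peak was covered over 100% of its length, and 0 kept vehicle peaks overlapped by 10 bp or less. No lost peak had an EGF peak within 10 bp of its edge, 19 had one within 1 kb, and the median gap was 31.5 kb. Kept peaks were wider after EGF in 80.4% of 7783 pairs, with medians of 245 and 290 bp. Gained peaks had a median width of 231 bp and lost peaks 209 bp. The scores of the pairs kept their order in part (Spearman's rho 0.623 across sites, which share 2 libraries). Among these pairs, 82.3% stood at a higher percentile in the EGF list, which also holds more low-ranked peaks beneath them.

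The sites at the top of each class were named. The highest kept sites were an intergenic one at chr2:133027677-133029543, 13.1 kb upstream of a start of ANKRD30BL, its neighbour at chr2:133026797-133027534, and one in an intron of MAN1A1, a mannosidase of the Golgi, at chr6:119558578-119558855. The highest gained site, at chr14:106044090-106044982, was intergenic and ranked 144 of the EGF list. Its nearest start, 10.2 kb away, was that of IGHA2, an immunoglobulin heavy chain gene. The next were in an intron of TMEM178B at chr7:140783156-140783433 (rank 209) and 65.75 kb upstream of CCND1, the gene of cyclin D1, at chr11:69389847-69390490 (rank 291). These 3 gained sites were all listed in SKBR3 after EGF, and none lay in an H3K4me1 island of either BT474 replicate.

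The highest lost site ranked 3 in the vehicle list. It lay at chr21:9825327-9825451, 0.443 kb from the start of MIR3648. The second, at chr1:91853148-91853192 in an intron of HFM1, a helicase of meiosis, was 45 bp wide. The third, at chr1:153895730-153896312, lay 185 bp upstream of a start of GATAD2B, a subunit of the NuRD repressor complex. This site held the core and lay in H3K4me1 islands of both replicates.

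Some kept sites changed place within the list. The largest rises were at chr14:80421126-80421526 in a non-coding gene, from percentile 1.65 in the vehicle list to 96.4 in the EGF list, at chr15:93718433-93719204, 86.4 kb from RGMA, from 4.42 to 98.3, and at chr7:57406592-57406907, 103 kb from ZNF716, from 0.140 to 91.7. The largest falls were at chr20:26189817-26190024 at the start of MIR663AHG, from 81.9 to 4.05, in an intron of C8orf34 at chr8:69370107-69370307, from 83.8 to 8.30, and in an intron of TYW1B at chr7:72042937-72043136, from 73.1 to 2.14.

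Gained and kept sites differed little in the kind of sequence they lay in. Introns held 55.1% of gained and 55.5% of kept sites, and intergenic sequence 35.8 and 35.2%. The median distance to any start site was 13.2 kb for gained and 13.4 kb for kept sites, against 13.6 kb for the genome windows. Within 1 kb upstream of a start lay 4.52% (4.25 to 4.81%) of gained and 4.60% (4.16 to 5.09%) of kept sites, against 4.20% of the genome windows. The intervals of the gained and kept shares overlapped for introns, intergenic sequence and promoters.

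Lost sites lay more often in exons and within 1 kb of a start of any gene. Their median distance to a protein-coding start, 36.5 kb, was close to that of kept (36.55 kb) and gained (36.4 kb) sites. Within 1 kb upstream of a start lay 48 lost sites, 6.37% (4.84 to 8.35%), and within 1 kb on either side 12.5% (10.3 to 15.0%), against 8.27% (7.91 to 8.64%) of gained and 8.35% (7.76 to 8.99%) of kept sites. Exons held 8.10% (6.36 to 10.3%) of lost sites, against 4.55% (4.28 to 4.84%) of gained and 4.66% (4.22 to 5.15%) of kept ones. Untranslated regions held 3.72% of lost, 1.89% of gained and 1.85% of kept sites. The upstream share alone overlapped the interval of kept sites, whereas the share on either side and the exon share did not.

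H3K4me1 was slightly more frequent at kept and lost sites than at gained ones. A gained site overlapped an island in 11.98% of cases for replicate 1 and 11.2% for replicate 2, a mean of 11.6% ± 0.545 (SD, n = 2 H3K4me1 replicates). For kept sites the replicates gave 13.7 and 13.0%, a mean of 13.3% ± 0.4996, and for lost sites 14.1 and 13.5%, a mean of 13.8% ± 0.376. Genome windows of 240 bp gave 11.4% ± 0.335. The replicates of kept and gained sites did not overlap, but the order depended on the length of the EGF list. When the EGF list was cut to 8559 peaks by score, 14.35% ± 0.643 of gained and 13.3% ± 0.533 of kept sites overlapped an island. Over the whole EGF list, the share of gained sites in islands was 10.1% ± 0.939 in the lowest decile of score, 15.9% ± 0.261 in the ninth and 14.5% ± 1.13 in the highest.

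**Figure D3:**
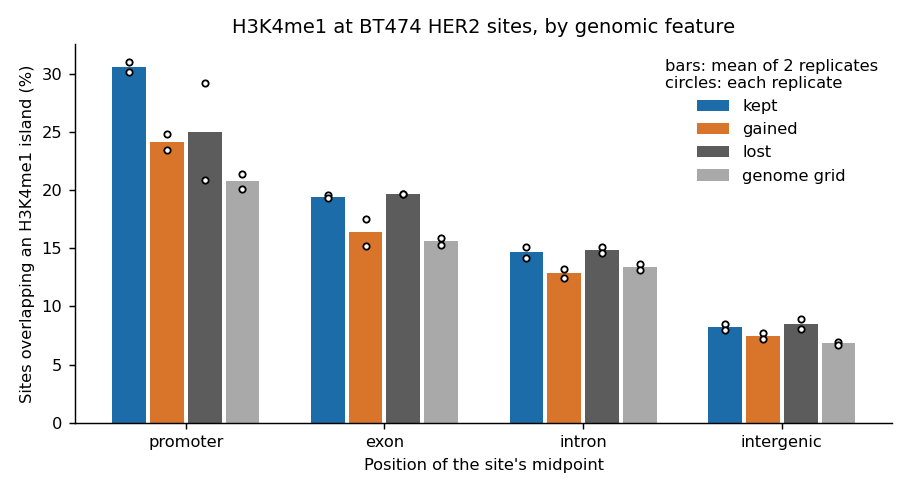
Share of kept, gained and lost HER2 sites and of 240-bp genome windows that overlapped a BT474 H3K4me1 island, by the feature at the site's midpoint. Bars are means of 2 H3K4me1 replicates and circles each replicate. Promoter sites had the highest shares, from 24.1 to 30.6% in the HER2 classes, and intergenic sites the lowest.

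The mark followed the genomic feature more than the class. Among promoter sites, 30.6% ± 0.593 of kept, 24.1% ± 1.02 of gained and 25% ± 5.89 of lost sites overlapped an island, against 20.7% ± 0.921 of promoter windows. Among intergenic sites the shares were 8.23% ± 0.336, 7.48% ± 0.376 and 8.50% ± 0.573, against 6.82% ± 0.179. Kept sites with the core were in islands in 16.9% ± 1.41 of cases and those without it in 12.8% ± 0.373. Intron sites that were gained, at 12.8% ± 0.524, lay below the 13.4% ± 0.388 of intron windows, with replicates that overlapped.

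SKBR3 lists gave a readout that the classes did not use. After EGF in SKBR3, 1535 kept sites were listed, 19.7% (18.8 to 20.6%), against 575 gained sites, 2.67% (2.46 to 2.89%), and 21 lost sites, 2.79% (1.83 to 4.23%). After vehicle in SKBR3 the shares were 5.52% (5.04 to 6.05%) of kept, 3.19% (2.96 to 3.43%) of gained and 0.398% of lost sites. Kept sites were thus listed in SKBR3 more often after EGF, whereas gained sites were listed slightly more often after vehicle. Within the highest decile of the BT474 EGF list, 39.3% of kept and 21.2% of gained sites were in the SKBR3 EGF list. Seen from SKBR3, 61.7% (59.8 to 63.6%) of its EGF peaks met a kept site and 23.02% (21.4 to 24.7%) a gained one. Of its vehicle peaks, 16.7% (15.3 to 18.2%) met a kept site, 26.4% (24.7 to 28.1%) a gained one and 56.8% none.

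**Figure D4:**
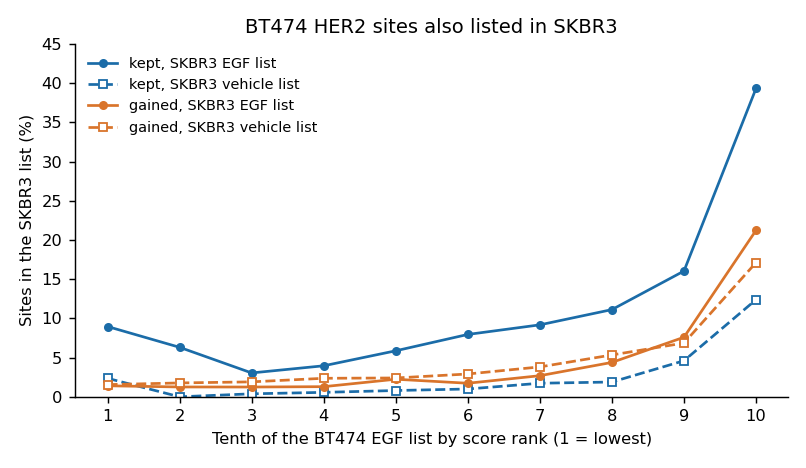
Share of BT474 kept and gained sites that were also listed in SKBR3 after EGF (filled circles) or vehicle (open squares), by decile of the BT474 EGF list. The shares of kept sites in the SKBR3 EGF list reached 39.3% in the highest decile, and gained sites were at 21.2% (EGF) and 17.1% (vehicle) there.

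GA stretches were also more frequent at the gained sites found in SKBR3, which had higher score ranks. Of the 575 gained sites in the SKBR3 EGF list, 34.4% (30.7 to 38.4%) had one, against 20.5% (19.97 to 21.07%) of the other gained sites. Their median percentiles were 68.5 and 39.99. Over all gained sites the GA share was 24.9% in the ninth decile of score and 32.4% in the highest. The comparison with SKBR3 was not made within score ranks. Gained sites with a GA stretch were in the SKBR3 vehicle list in 6.76% (6.06 to 7.53%) of cases and those without in 2.25% (2.04 to 2.48%). Kept sites with one were in the SKBR3 EGF list in 33.3% (30.5 to 36.3%) and those without in 17.6% (16.7 to 18.6%).

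Gained sites stood about as far from kept sites as kept sites from each other. The nearest kept site was a median of 113 kb from a gained site, and 6.70% (6.37 to 7.04%) of gained sites had one within 10 kb. Kept sites were a median of 109 kb apart, and 7.04% (6.49 to 7.63%) had another within 10 kb. Genome windows had a kept site within 10 kb in 5.29%. Lost sites had an EGF peak within 10 kb in 20.7% (18.0 to 23.8%), and genome windows in 18.2%. Runs of sites at most 5 kb apart held 9.75% of gained sites, 3.25% of kept sites and 0.266% of lost sites, with up to 8 gained sites in a run. These shares rise with the number of sites, which was 21541, 7785 and 753. Another gained site lay within 10 kb of 17.3% of gained sites, against 13.8% of genome windows. Of the 1687 runs in the EGF list, 919 held gained sites only, 663 held both kinds and 105 kept sites only.

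The densest gained sites were on chromosome 19. That chromosome had 12.9 gained sites per Mb, against 7.60 for the genome and 4.91 on the X chromosome, which was lowest, and 3.51 kept sites per Mb against 2.75. Its EGF list was 4.32 times as long as its vehicle list, against 3.43 for the genome. On chromosome 19, 45.1% (41.5 to 48.8%) of the 720 gained sites had a GA stretch, against 20.05% of gained sites elsewhere. Windows 1 kb from them had one in 12.4%, and the genome windows of chromosome 19 in 7.63%. Kept sites of chromosome 19 had one in 39.3% and lost sites in 6.67%, that is 1 of 15.

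**Figure D5:**
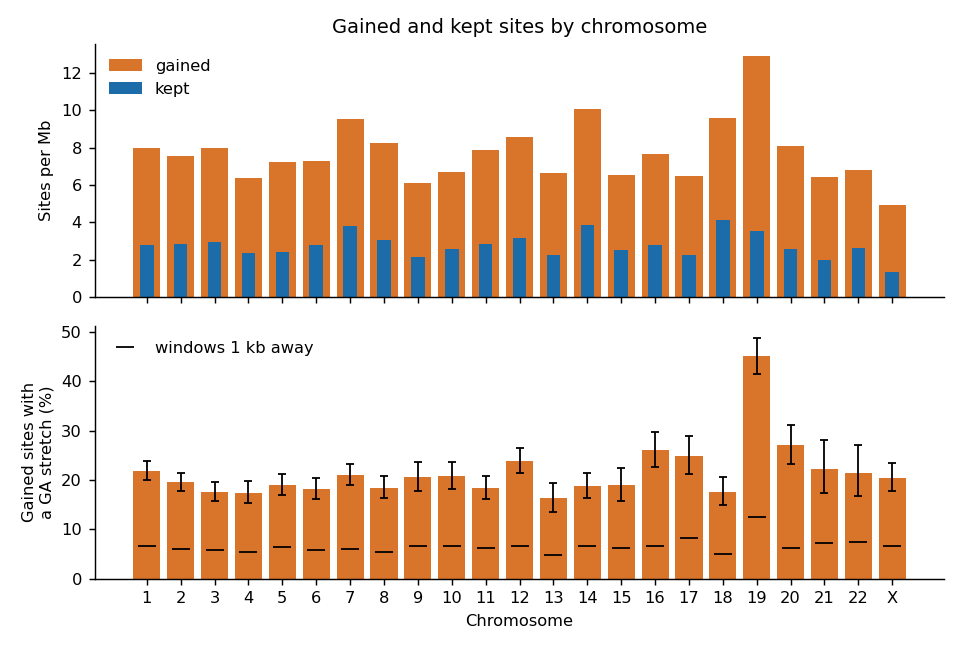
Upper: gained (wide bars) and kept (narrow bars) HER2 sites per Mb of sequenced chromosome. Lower: share of gained sites with a GA stretch, with 95% Wilson intervals, and dashes for windows 1 kb away. Chromosome 19 was highest in both, at 12.9 gained sites per Mb and 45.1%.

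The 2 densest stretches of 100 kb were at chr19:42411102-42501245, with 17 gained and 3 kept sites, and at chr19:47884811-47974562, with 15 and 2. The first spans genes that include ARHGEF1, an exchange factor for small GTPases, and RABAC1, and 12 of its 17 gained sites had a GA stretch. The second spans DHX34, MEIS3 and SLC8A2, a sodium-calcium exchanger, with 10 of 15. In the first stretch 1 of the 17 gained sites overlapped an H3K4me1 island of either replicate, and in the second 4 of 15 did.

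The densest stretch of the 7785 kept sites held 7, at chr2:133024665-133099234, with no protein-coding gene. Stretches of 5 lay in CTNNA3, an alpha-catenin, at chr10:67957719-68037989, and at IGF2, the gene of an insulin-like growth factor, at chr11:2063884-2152988. No 100 kb held more than 2 lost sites.

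Genes were counted by the sites within 10 kb of any of their start sites. Of 20098 protein-coding genes, 5049 had a gained site (25.1%), 2131 a kept site (10.6%) and 225 a lost site (1.12%). A gained site without any vehicle peak was found at 4137 genes (20.6%), and a lost site without any EGF peak at 115 (0.572%). With the EGF list cut to 8559 peaks, these counts were 795 and 868. A gained site in the gene body was found at 5446 (27.1%). These shares followed gene length, since 16.7% of genes in the shortest quartile and 37.6% in the longest had a gained site near a start. LncRNA genes had one in 17.0% and pseudogenes in 12.6%.

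The genes with the most gained sites were long, and among the 8 with at least 16 the density ran from 0.714 to 1.88 gained sites per 100 kb. DLG2, a synaptic scaffold, and RBFOX1, a splicing factor, had 25 each, which is 1.15 and 1.01 per 100 kb. CNTNAP2, a neurexin-like adhesion protein, and PTPRN2, a receptor phosphatase of secretory granules, had 19 each, DLGAP1, a postsynaptic protein, had 18 and ASIC2, an acid-sensing channel, 16, as did CNTN5 and DMD. All protein-coding bodies together had 0.766 gained and 0.289 kept sites per 100 kb. CTNNA3, MACROD2 and the adhesion protein gene SDK1 each had 10 kept sites, and ENSG00000250349 had 9. MAD1L1, of the spindle checkpoint, and the overlapping ENSG00000286192 had 4 lost sites each, and CCSER1 and DSCAM had 2 each.

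The 5 kept sites of highest score within 1 kb upstream of a protein-coding start ranked from 98 to 372 in the EGF list. Of the 5 highest gained sites within 1 kb upstream of a protein-coding start, 4 were at BCL6, a transcriptional repressor (313 bp upstream, rank 1323), FOXS1, a forkhead factor (527 bp, rank 1459), PRKAG2, a subunit of the AMP-activated kinase (335 bp, rank 2016), and ZBTB44 (594 bp, rank 2177). None of these 4 sites overlapped an H3K4me1 island. The 5 highest lost promoter sites were at GATAD2B (185 bp), SYT15, a synaptotagmin with the near-identical copy SYT15B (626 bp), NAA25, of an acetyltransferase complex (129 bp), C16orf87 (186 bp) and MDGA2 (371 bp). Of these, the sites at GATAD2B and SYT15 lay in islands of both replicates.

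Among the 4 ERBB receptor genes, 2 had a gained site near a start and 2 a kept one, against 25.1% and 10.6% of all protein-coding genes. ERBB4 had 7 gained and 2 kept sites in its body of 1163 kb. EGFR had 3 kept sites and no gained one. At chr7:55163280-55163881, in an EGFR intron, the percentile was 84.1 in the vehicle list and 99.1 in the EGF list. Of all kept pairs, 82.3% stood higher in the EGF list. ERBB3 had 1 kept site in an untranslated exon, which also lies in the overlapping ENSG00000257411, at chr12:56495502-56495774, and 1 gained site beside it at chr12:56495022-56495331. ERBB2 had no site, and the nearest EGF peak was 358 kb away.

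The lack of sites at ERBB2 was part of a longer stretch. No peak of either BT474 list lay between chr17:35297421 and chr17:38244954, which spans 2948 kb and 55 protein-coding genes. Thus 0 of the 15 ERBB2 amplicon genes had a site in the body or within 10 kb of a start. Of all protein-coding genes, 31.5% had an EGF peak within 10 kb of a start and 32.3% in the body. All 15 genes lie in this stretch, so they are not independent cases. H3K4me1 islands there held 2.92 and 2.82 times the genome's reads per kb of island in replicates 1 and 2. The longest such stretch in assembled sequence, chr20:50447324-57425250, spans 6978 kb and 36 protein-coding genes, with 2.34 and 2.40 times the reads. The SKBR3 lists together had 64 peaks in it, and 0 in the stretch around ERBB2. Of the 8 stretches longest in assembled sequence, 4 lay on chromosome 17, with ratios from 1.94 to 2.92, and those on chromosome 9 had ratios under 1. The one on chromosome X had a ratio of 0.52 in replicate 1 and none in replicate 2, which had no island within it. The study's methods remove regions with a high signal in the DNA input of a line, and the part of that filter was not tested.

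Genes of EGF signalling were counted from lists written out by role. Ligand genes had a gained site near a start in 2 of 11 cases (NRG2 and TGFA), and NRG1, whose product binds ERBB3 and ERBB4, had a kept one. In its body of 1112 kb NRG3 had 13 gained and 4 kept sites. Of 25 adaptor and RAS-ERK genes, 5 had a gained site near a start (20%) and 4 a kept one. KSR2, a scaffold of the cascade, had 8 gained, 3 kept and 1 lost site in its body, RPS6KA5 had 6 gained and 1 kept, SOS1, an exchange factor for RAS, had 4 and 3, and GAB2, an adaptor, had 4 and 0. For gained sites, these lists were near the 25.1% of all protein-coding genes or below it. The median body was 100.9 kb for ligand and 104.8 kb for adaptor and RAS-ERK genes, against 27.3 kb for all. Of the longest quartile, 37.6% had a gained site near a start. Kept sites were near a start at 9.09% of ligand and 16% of adaptor and RAS-ERK genes. Those shares stand against 10.6% of all genes and 18.4% of the longest quartile.

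Of 14 protein kinase C and phospholipase C genes, 8 had a gained site near a start (57.1%) and 6 a kept one, with a median body of 261 kb against 27.3 kb for all protein-coding genes. Of all protein-coding genes 25.1% had a gained and 10.6% a kept site near a start, and of the longest quartile 37.6% and 18.4%. PRKCH had 5 gained and 4 kept sites in its body, PLCB1 6 and 1 with 1 lost, and PRKCE 6 and 1. Of 21 PI3K-AKT genes, with a median body of 92.9 kb, 9 had a gained site near a start (42.9%) and 2 a kept one (9.52%). RPTOR, of the mTOR complex, had 2 gained, 3 kept and 1 lost in its body, RICTOR 3 and 2, and INPP4B, a lipid phosphatase, 2 and 0. Of 19 stress kinase genes, with a median body of 83.45 kb, 9 had a gained site near a start (47.4%) and 1 a kept one (5.26%). MAPK10 had 4 gained and 1 kept in the body and MAP2K6 2 and 1. MAP2K4 had 2 gained and none kept.

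At MAP3K13, a kinase upstream of JNK, 3 gained sites joined 2 kept ones within introns. The gained site at chr3:185082112-185082399, 1.23 kb from a start, stood at percentile 81.9, lay in H3K4me1 islands of both replicates and was listed in SKBR3 after EGF. The kept site at chr3:185057850-185058160 moved from percentile 54.9 to 96.9. At PRKCH, protein kinase C eta, 5 gained sites joined 4 kept ones in the body. All 4 kept sites stood higher in the EGF list, as did 82.3% of all kept pairs, at percentiles 56.2, 96.3, 99.5 and 93.4 against 11.7, 49.3, 95.8 and 33.1. Of its 5 gained sites in the body, 2 lay in islands of both replicates, at chr14:61824120-61824354 and chr14:61984219-61984484.

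Immediate early genes, which growth factors are known to induce first, were near gained sites in 8 of 24 cases (33.3%, against 25.1% of all protein-coding genes) and near kept ones in 4 (16.7%, against 10.6%). Their median body was 7.06 kb. In the shortest quartile of genes 16.7% had a gained and 6.27% a kept site near a start, and in the next quartile 20.3% and 7.39%. MYC had gained sites at chr8:128753824-128754070, in an untranslated exon at percentile 89.6 and in islands of both replicates, and at chr8:128758447-128758724. NR4A1 had 1 gained and 2 kept sites in its body, and ATF3 and CCN1 had 1 gained site each. Of 15 JAK-STAT genes, 5 had a gained site near a start (33.3%, against 25.1%), among them JAK1, which had 4 in its body, and TYK2 and PIAS1 with 1 each. STAT3 and PTGS2 had none, with the nearest EGF peaks 219 and 271 kb away. MAPK11, which encodes a p38 kinase, had a gained site at chr22:50712505-50712704, at percentile 1.18, with the core.

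The shares of the other lists stand beside 25.1% of all protein-coding genes with a gained and 10.6% with a kept site. Of 20 feedback inhibitors, 2 had a gained site near a start (10.0%), NF1 and CBLB, a ubiquitin ligase for receptors, and 3 a kept one. NF1, which turns RAS off, had 5 kept and 2 gained sites in its body. CBL and RASA1 had 1 gained site each. Of 14 endocytosis and nuclear import genes, 2 had a gained site near a start (14.3%) and 4 a kept one, with RAB7A at 2 and 2 in its body and EEA1 and RAB11A at 2 kept each. Of 20 luminal and oestrogen response genes, 3 had a gained site near a start (15.0%) and 4 a kept one. ESR1, the oestrogen receptor gene, had 4 gained and 1 kept in its body, GREB1 3 and 1, and TFAP2B 1 gained. PGR, the progesterone receptor gene, had 1 gained site at chr11:100949753-100950038, at percentile 97.7 and in islands of both replicates.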

How the data were processed

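HER2 was mapped by ChIP-exo in BT474 and SKBR3 (1 library per treatment) and H3K4me1 by ChIP-seq (2 replicates per line). The 2 input samples were not analysed here. The authors mapped reads to hg19, called HER2 peaks with MACS and H3K4me1 islands with SICER 1.1, and removed blacklisted and high-input regions. The submitters' processing notes name BWA 0.5.9 and MACS 1.4.1, the study's methods other programs. HER2 peaks came with a score that the authors deposited without a scale, and only its rank was read. For H3K4me1 the authors deposited a read count per island, which was left unscaled. BT474 islands held 18713926 and 15097156 reads (96291 and 89477 islands). Sequencing depth of HER2 is unknown. Both BT474 HER2 lists have the same listed antibody. The study names several lots of it and does not say which library used which lot.

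Chromosomes 1 to 22 and X, GRCh37 sequence and GENCODE release 44 mapped to GRCh37 were used, with Python 3.11.15, numpy 2.4.6 and pandas 2.3.3. Overlap functions were tested on simulated data. The classes, gene lists and letters were chosen with earlier results of these data known, and the GA words on the gained sites. No treatment test was possible. Genes were named by rule: genes the study names, those at the highest-ranked, most moved, promoter and densest sites, those with the most sites in the body, and up to 4 members per list. Alternatives changed the overlap rule, list length, H3K4me1 rule, start set, search window and distance. Some genes and sequences that these rules selected are not reported here.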

Additional observations from a re-analysis of the deposited data

Results flagged for a closer look

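The EGF list was longer than the vehicle list in BT474 and of nearly the same length in SKBR3. In BT474 the EGF list held 3.43 peaks per vehicle peak, and in SKBR3 it held 0.971, with 8559 and 29326 peaks in BT474 and 2596 and 2520 in SKBR3. Each number rests on 1 library, their depth is unknown, and the difference between the lines was not tested.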

How the results depend on the processing

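Of 79 alternatives to 21 results, 38 stayed within the error of the value or within 1.5 times a count, and 41 moved. A stricter rule of 50% overlap moved none. With midpoints within 100 bp, 89.5% of vehicle peaks were kept. Cutting the EGF list to the length of the vehicle list by score gave 59.2% of vehicle peaks kept, 41.1% of EGF peaks gained, H3K4me1 at 14.35% of gained sites, the core at 5.37% of gained and 13.05% of lost sites, SKBR3 EGF shares of 26.7% (kept), 7.67% (gained) and 6.07% (lost), 5.20% of gained sites within 10 kb of a kept one, 6.52% of lost sites within 10 kb of an EGF peak, 795 genes with a gained site only and 868 with a lost site only. There the GA stretch was at 15.4% of kept and 23.2% of gained sites, the core at 11.8% of kept sites with an interval that overlapped that of lost sites, and the order of kept and gained sites for H3K4me1 turned. Islands of either replicate gave 15.5% (kept), 13.5% (gained) and 15.9% (lost), and midpoints inside an island 12.1, 10.7 and 12.9%. Leaving out a H3K4me1 replicate gave 13.0 to 13.7% (kept), 11.21 to 11.98% (gained) and 13.5 to 14.1% (lost). Starts of protein-coding genes alone gave promoter shares of 2.75, 2.87 and 4.52% (kept, gained, lost), and 1 kb to either side 8.35, 8.27 and 12.5%. The whole peak held the core in 19.6, 8.90 and 24.0% and a GA stretch in 24.9, 30.8 and 13.7%, the word GAGAGAGA alone was at 5.87, 10.6 and 1.46%, and without chromosome 19 the GA share of gained sites was 20.05%. Within 50 kb, 26.9% of gained sites had a kept one and 64.9% of lost sites an EGF peak. With starts within 1 kb, 1051 genes had a gained site only and 53 a lost site only. The GA alternatives were added after the data were seen. No paired analysis was possible because HER2 had 1 library per treatment. No depth is known for HER2, so a site absent from a list may have lain below its threshold.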
